A study of Mus musculus with 2 samples.

Results

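The regions described here are the 431 ISL1 peaks that lay inside an intron and more than 30 kb from the nearest annotated transcription start site (TSS). They were taken from an annotated list of 1483 peaks by the deposited annotation and the deposited distance, so neither the annotation nor the distance is a finding. They made up 29.1% of all peaks (26.8 to 31.4%, exact Clopper-Pearson 95% interval) and 71.2% of the 605 intronic peaks (67.4 to 74.8%). Intervals cover counting error only and treat each peak as independent, although peaks in the same host are not. For comparison, 174 intronic peaks lay within 30 kb of a TSS and 676 intergenic peaks lay farther than 30 kb from one.

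The peaks came from chromatin immunoprecipitation with sequencing (ChIP-seq), which recovers DNA fragments crosslinked to a protein of interest. Cells of the sinoatrial node, the pacemaker of the heart, were sorted by GFP from neonatal mice of ICR background at postnatal day 1 to 3, and these mice carried the reporter Hcn4-H2BGFP. The same genotype, age and sort applied to the 1 library precipitated with 5 µg of antibody to ISL1 and to the 1 input DNA library, which was not analysed here. There was no replicate, so no difference between sets of peaks was tested, and the sort selected cells by a reporter named for Hcn4, a pacemaker channel gene, rather than by ISL1 itself.

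ISL1 is a LIM-homeodomain transcription factor that marks cardiac progenitors and persists in the sinoatrial node after birth. Introns can hold enhancers, and an enhancer can act on the gene that contains it or on a neighbour across an intervening gene. A peak list that names only the nearest TSS therefore need not name the gene around the peak. In the following, the host is the gene whose intron held the peak, from the transcript named in the annotation, and the nearest gene is the one that the deposited table lists by TSS.

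Among the nearest genes were 6 microRNA genes, which were listed for 8 of the peaks. By the gene order of GRCm38.p6, each of these microRNA genes itself lay inside the host of its peak. MicroRNAs pair with target transcripts mainly through a seed at bases 2 to 8. The mature sequences of 2 of these genes, from RefSeq (GRCm38.p6), are given as examples, 5′ to 3′ with the seed in capitals.
miR-214-3p: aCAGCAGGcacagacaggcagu
miR-214-5p: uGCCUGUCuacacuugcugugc
miR-346-3p: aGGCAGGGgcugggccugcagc
miR-346-5p: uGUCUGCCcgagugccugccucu
The peak listed under Mir214 lay in intron 7 of 19 of Dnm3, which encodes a dynamin of membrane scission, 90.6 kb from the microRNA start and with a score of 13.7. The peak listed under Mir346 lay in intron 4 of 15 of Grid1, a delta-type glutamate receptor gene, 171 kb from that start and with a score of 16.4. Mir1904 in Pde4d, Mir6419 in Nebl, Mir8104 in Ppm1h and Mir1907 in Trps1 were the others, Mir1907 for 3 peaks. The 7 mature sequences found for 5 of the 6 genes had 7 different seeds.

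The highest peaks lay inside genes of varied roles. The deposited peak score, the authors' own number, ran from 9.58 to 41 over the 431 peaks, and 14 of them (3.25%, 1.79 to 5.39%) scored above 30. The highest, at 41, lay in intron 3 of 4 of Csrnp3, a nuclear protein gene, at chr2:65820229-65820373 (mm9), 50.4 kb from its TSS. A second peak in the same intron scored 12.3. Sorl1, which encodes a sorting receptor, held the next one, with a score of 39.7 in intron 25 of 47 at chr9:41818510-41818654, 114 kb from its TSS. Both of these peaks were listed under their host.

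Lama2, which encodes a laminin chain of the muscle basement membrane, held a peak with a score of 38.3 in intron 32 of 63 at chr10:26860316-26860460. The deposited table listed it under Arhgap18, a GTPase-activating protein gene, 368 kb away. Gmds, which encodes the first enzyme of GDP-fucose synthesis, also held a peak at 38.3, in intron 4 of 10 at chr13:32271960-32272104. Eif3h, a translation initiation factor subunit gene, had a peak of 35.6 in intron 3 of 7 and a second of 13.7 in intron 2. Cox10, whose product acts in heme A synthesis for cytochrome oxidase, had 34.2 in intron 4 of 6, with 2 further peaks of 12.3 within 2.87 kb. The remaining peaks above 30 lay in Ust, Ints9, Prkg1 and Sec24d at 31.5 and in Plcl1, Gmds, Hs2st1 and Uvrag at 30.1. In all, 5 of the 14 were listed under a gene other than their host.

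Scores rose in equal steps of 1.37, and 0 of the 1483 scores differed from a whole multiple of that step once the multiple was rounded to 3 digits as the scores are. If 1 step stands for 1 sequenced tag, which the sources used here do not state, the peaks described rest on 7 to 30 tags with a median of 11. The Poisson 95% interval of 11 tags is 5.49 to 19.7, or 7.51 to 26.9 on the score scale. For the Csrnp3 peak the same reading gives 27.7 to 58.6. The intervals of the highest peak and of a peak at the lowest score, 3.85 to 19.7, do not overlap, whereas those of neighbours in rank do.

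In the middle of the range the intronic peaks beyond 30 kb had the score of other peaks. Their median score was 15.1 (13.7 to 15.1, exact order-statistic 95% interval), with quartiles of 12.3 and 17.8. The median was also 15.1 in intronic peaks within 30 kb, where scores reached 84.8, and in intergenic peaks beyond 30 kb, where they reached 52. At or above 23.3, the 90th percentile of the whole list, lay 47 of the 431 (10.9%, 8.12 to 14.2%), against 10.9% of all peaks.

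The focus ratio, a fraction deposited per peak and not interpreted here, had a median of 0.739 (0.722 to 0.75) in the 431 peaks. It was 0.762 (0.75 to 0.786) in intronic peaks within 30 kb and 0.732 in intergenic peaks beyond 30 kb. The detailed annotation placed 18 of the 431 on a repeat (4.18%, 2.49 to 6.52%), namely 5 on LTR elements, 4 on LINEs, 3 each on DNA elements and SINEs, and 1 each on a simple, an rRNA and an unclassified repeat. In intronic peaks within 30 kb the share was 9.77% (5.79 to 15.2%), and in intergenic peaks beyond 30 kb it was 10.1% (7.90 to 12.6%). The interval of the 431 overlaps that of intronic peaks within 30 kb but not that of intergenic peaks beyond 30 kb, and no difference was tested.

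Distances to the nearest TSS ran from 30.05 to 1461 kb, with a median of 94.6 kb and quartiles of 55.1 and 170.4 kb. Just inside the limit lay a peak of score 13.7 in Snx25, a sorting nexin gene, at 30.05 kb, and just outside it a peak of 15.1 in Galnt3 at 29.9 kb. The next peaks outside it, in the tetraspanin genes Tspan8 (38.3) and Tspan12 (39.7), lay at 29.9 and 29.7 kb. The farthest peak lay in intron 9 of 39 of Ptprd, a receptor tyrosine phosphatase gene, 1461 kb from the Ptprd TSS and with a score of 10.9. Score showed almost no relation to distance across the 431 peaks of this 1 library (Spearman rank correlation -0.04), and the median stayed between 13.7 and 15.1 in the 5 ranges of distance drawn in the plot of score against distance.

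**Figure D1:**
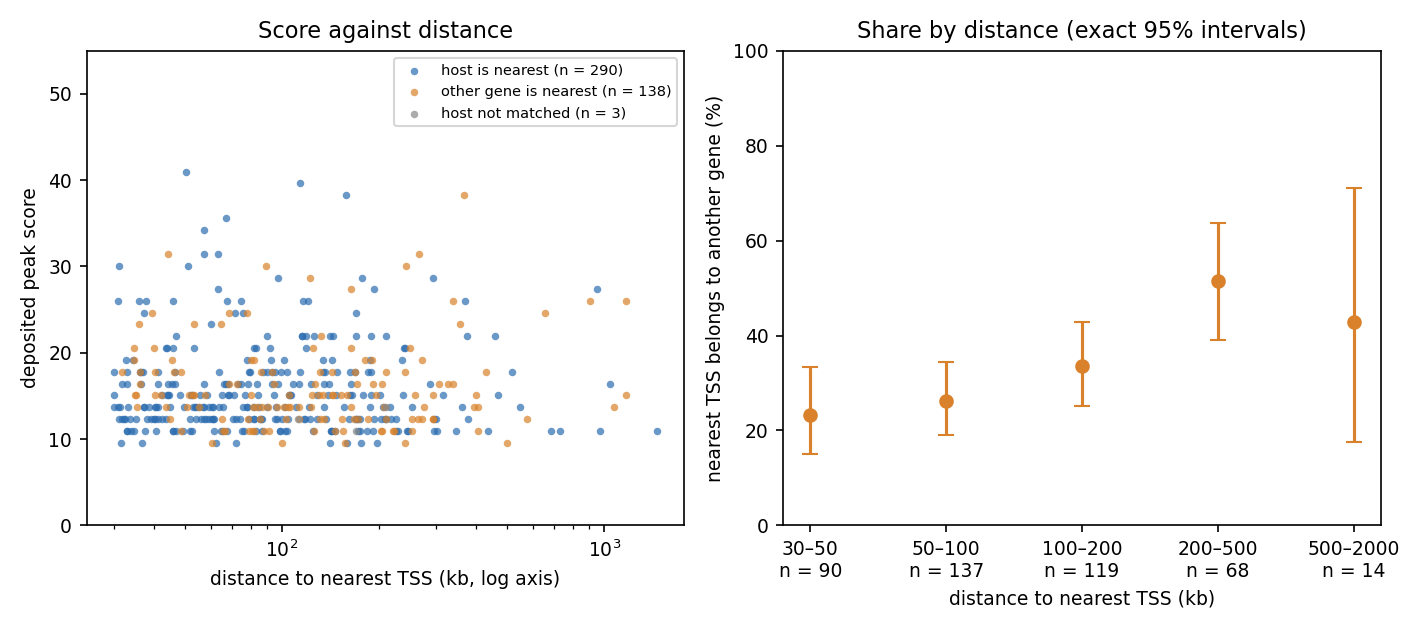
Deposited peak score against distance to the nearest TSS in kb (log axis) for the 431 intronic peaks beyond 30 kb. Each point is 1 peak of the 1 ISL1 library, coloured by whether its host or another gene has the nearest TSS, or grey where no host was matched. The second panel gives the share listed under another gene in 5 ranges of distance, with exact 95% intervals, from 23.3% at 30 to 50 kb to 51.5% at 200 to 500 kb.

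The nearest TSS belonged to a gene other than the host for about 1 peak in 3. A host could be assigned for 428 of the 431 peaks, and for 138 of them (32.2%, 27.8 to 36.9%) the deposited table named another gene. Among the 174 intronic peaks within 30 kb it was 29 (16.7%, 11.5 to 23.1%). The difference was not tested, since distance fixes part of it. The 138 peaks had a median score of 15.1 (13.7 to 15.1) and the 290 listed under their host 13.7 (13.7 to 15.1), so the 2 sets had the same interval. They lay farther from the listed TSS, at a median of 126 kb against 83.4 kb.

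The share under another gene was 23.3% (15.1 to 33.4%) for peaks at 30 to 50 kb and 26.3% at 50 to 100 kb. It was 33.6% at 100 to 200 kb and 51.5% (39.0 to 63.8%) at 200 to 500 kb, the last being 35 of 68 peaks. Beyond 500 kb it was 6 of 14 peaks (42.9%, 17.7 to 71.1%). Distance to the nearest TSS fixes part of this share, so the rise is a description and was not tested. The 35 peaks include the 5 in Erc2 that were listed under Wnt5a, so they are not 35 independent cases.

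The position within the host differed along with this. The 290 peaks listed under their host had a median intron number of 3, and the 138 others had 7. Intron 1 held 57 of the 290 (19.7%) and 8 of the 138 (5.80%), while the last intron held 10 (3.45%) and 15 (10.9%). Over all 431 peaks, intron 1 held 65 (15.1%, 11.8 to 18.8%), intron 2 held 67, intron 3 held 52 and intron 4 held 53. A further 30 lay in intron 5, 81 in introns 6 to 10, 58 in introns 11 to 20 and 25 in later ones. In intronic peaks within 30 kb, intron 1 held 84 of 174 (48.3%, 40.7 to 56.0%). As intron 1 begins at a TSS, this share is not independent of the distance limit.

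The share listed under another gene was 12.3% in intron 1, 13.4% in intron 2 and 13.5% in intron 3. It was 30.8% in intron 4, 37.9% in intron 5, 56.2% (44.7 to 67.3%) in introns 6 to 10 and 43.1% (30.2 to 56.8%) in introns 11 to 20. Beyond intron 20 it was 68% (46.5 to 85.1%) of 25 peaks, and the intervals of the last 3 ranges overlap. Later introns lie farther from the host start, so these shares and the median intron numbers above are not independent of distance and were not tested. The host transcripts had a median of 14 introns. The largest intron number was 87 of 89, in Adgrv1, an adhesion G protein-coupled receptor gene, where a peak of 15.1 was listed under the noncoding gene 9330111N05Rik.

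**Figure D2:**
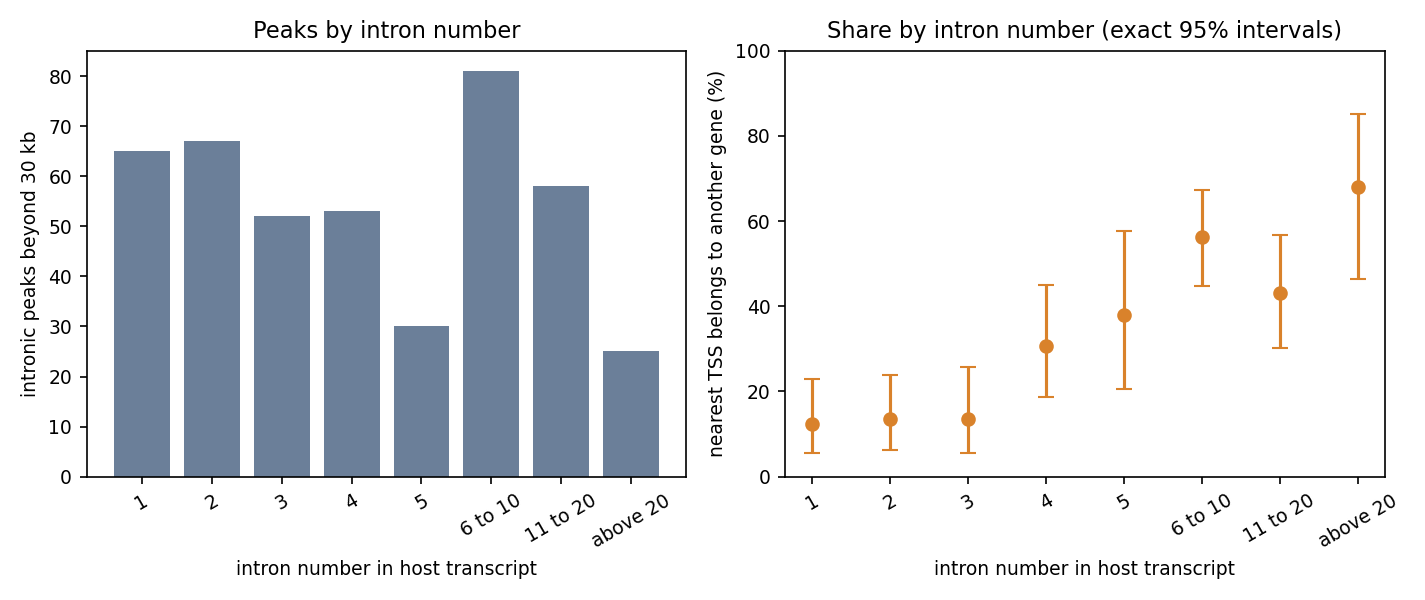
Number of intronic peaks beyond 30 kb by the number of the intron that held them (bars), and the share of them listed under another gene than the host in % (points with exact 95% intervals). The share lies between 12.3 and 13.5% in introns 1 to 3, at 56.2% in introns 6 to 10 and at 43.1% in introns 11 to 20.

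The gene listed in place of the host was protein-coding for 84 of the 138 peaks (60.9%), noncoding for 51 (37.0%, 28.9 to 45.6%) and a pseudogene for 3. Among the 290 peaks listed under their host, 6 had a noncoding host. By the gene order of GRCm38.p6, the listed gene stood beside the host for 81 peaks, of which 73 had a coding neighbour, and lay inside the host for 46, of which 39 had a noncoding one. It overlapped the host for 10 peaks and could not be placed for 1. In all, 102 pairs of host and listed gene occurred, with 99 hosts and 101 listed genes.

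Where signed distances and the order of introns fixed the place of a host start, the distance to it was computed for 48 of the 138 peaks, in 26 hosts. A host can have other starts, and for the 2 peaks of Prkg1 among these the start used was internal. The host start lay at a median of 330 kb and the listed start at 158 kb, and all 48 were nearer to the listed gene, as the way the table was made requires. A start could be placed only for a host that was itself listed for a peak, so 68 hosts could not enter. These medians therefore do not describe all 138 peaks, for which the listed start lay at a median of 126 kb. Among the 48, the ratio of the distances had a median of 1.61 and ran from 1.01 to 16.1. At the low end, a Cachd1 peak lay 146.8 kb from its host start and 145.5 kb from Raver2, so the listed name turned on little more than 1 kb. At the high end, a Lrmda peak lay 558 kb from its host start and 34.7 kb from the noncoding gene 4930405A10Rik.

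**Figure D3:**
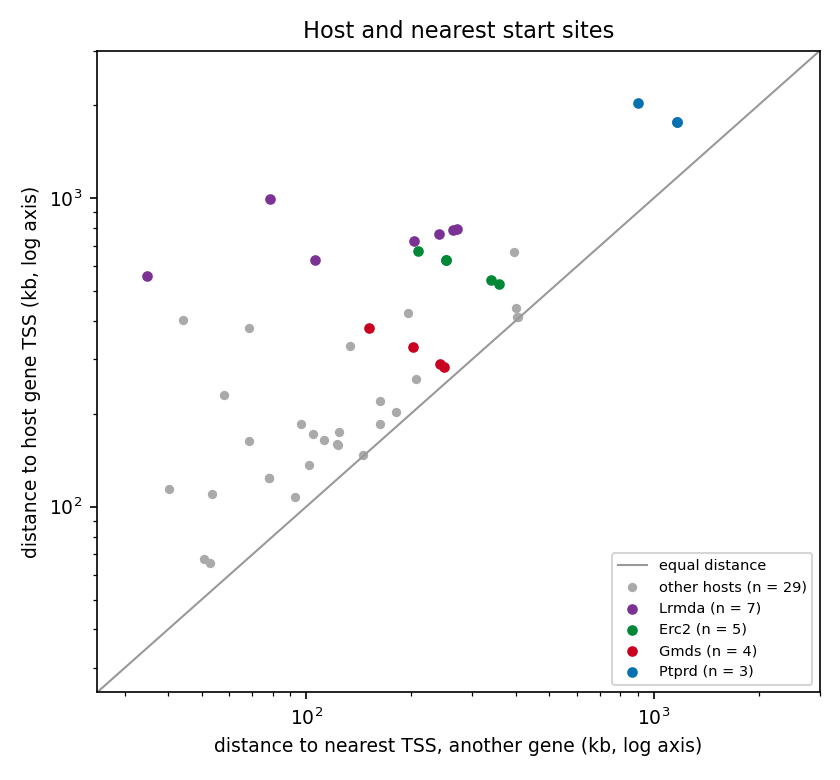
Distance to the host start against distance to the listed nearest TSS, both in kb on log axes, for the 48 peaks whose host start could be placed. The line marks equal distances and the colours mark Lrmda, Erc2, Gmds and Ptprd; the points run from just above it (ratio 1.01) to 16.1 times as far from the host start.

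Of the 328 peaks that lay downstream of the nearest TSS (76.1%, 71.8 to 80.0%), 269 were listed under their host. A further 21 peaks lay upstream of the listed start of their own host, which means that the listed start was internal to the gene. Nrxn3, a presynaptic neurexin gene with several promoters, had such a peak of 28.7 in intron 14 of 19, 177 kb upstream of the listed start. Dlg2, a synaptic scaffold gene, had one of 21.9 at 375 kb. Among the 138 peaks under another gene, 80 lay upstream of its start (58.0%, 49.3 to 66.3%).

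Several hosts stood beside secreted signals or transcription factors. Erc2, which encodes a scaffold of the presynaptic active zone, held 6 peaks on chromosome 14, and 5 of them were listed under Wnt5a, a noncanonical WNT ligand gene. These 5 lay in introns 13 and 14 of 15, between chr14:28960642-28960786 and chr14:29108339-29108483, with scores of 23.3, 16.4, 12.3, 10.9 and 17.8. They were 210 to 358 kb upstream of the Wnt5a TSS and 525 to 673 kb from the Erc2 start. The sixth, in intron 2, was listed under Erc2 itself at 39.3 kb and scored 12.3.

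Gmds showed the same arrangement beside Foxc1, which encodes a forkhead factor of cardiac and vascular development. Of its 6 peaks, 4 in intron 7 were listed under Foxc1, with scores of 15.1, 10.9, 30.1 and 20.5 at 152, 202, 242 and 249 kb from that TSS. Their distances to the Gmds start were 380, 330, 290 and 283 kb. The other two lay in intron 4, scored 21.9 and 38.3, and were listed under Gmds. The peak of 30.1, at chr13:32140521-32140665, thus carried the name of Foxc1 while the higher one carried that of its host.

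Further signalling genes were nearest to peaks inside another gene. Uvrag, whose product acts in autophagy, held a peak of 30.1 in intron 13 of 14 at chr7:106076685-106076829, 89.4 kb from Wnt11. An intron of Cdk14, a cyclin-dependent kinase gene, held a peak of 16.4 at 191 kb from Fzd1, a WNT receptor gene. The last intron of 2700049A03Rik held peaks of 19.2 and 10.9 about 80 kb upstream of Dact1, which encodes a modulator of WNT signalling.

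The remaining pairs with a listed neighbour on a gene list concerned receptors, ligands and matrix enzymes. Peaks of 13.7 lay in Unc5c at 208 kb from Bmpr1b, a BMP receptor gene, in Pard3b at 395 kb from Nrp2, a semaphorin co-receptor gene, and in Samd12 at 275 kb from Ext1, a heparan sulfate polymerase gene. Fbxl17 held a peak of 15.1 at 196 kb from Efna5, an ephrin gene. Gpc5 held one of 12.3 in its last intron at 577 kb from Gpc6, the neighbouring glypican gene.

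Other high pairs had listed genes of quite different roles from their hosts. Ust, an uronyl sulfotransferase gene, held peaks of 31.5 and 15.1 in its last intron, both listed under Tab2, a kinase adaptor gene, at 265 and 258 kb. The Prkg1 peak of 31.5 was listed under 8430431K14Rik at 44.3 kb although a Prkg1 start lay 404 kb away. That start was internal, since another Prkg1 peak lay in intron 1 at 34.7 kb upstream of it, so the first exon of the host transcript was farther still. Ppm1l, a phosphatase gene, held a peak of 28.7 listed under B3galnt1 at 122 kb. Ror1, a WNT5A receptor gene, held one of 27.4 listed under Ube2u at 163 kb. Cadm2, a synaptic adhesion gene, held one of 26 listed under 1700010K23Rik at 339 kb.

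Most hosts held a single peak. The 428 peaks fell into 295 host genes, of which 218 held 1, 47 held 2 and 30 held 3 or more, the last with 116 peaks. Host length was not used in any count. A host was listed for all of its peaks in 196 cases, for none in 76 (93 peaks) and for some in 23. Of those 76 hosts, 68 were listed for no peak of the whole table, so a reading by nearest TSS alone does not contain them. In addition, 29 hosts also held an intronic peak within 30 kb.

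Lrmda, a gene linked to melanocyte differentiation, held the most, with 9 peaks over 924.8 kb of chromosome 14 and scores of 24.6, 19.2, 20.5, 13.7, 16.4, 9.58, 12.3, 19.2 and 10.9 in genomic order. The deposited table listed 2 of them under Lrmda, 6 under 4930405A10Rik and 1 under Gm10248. Unc5c, which encodes a netrin receptor, held 7, and 6 of these lay in intron 1 within 83.0 kb, with scores of 16.4, 16.4, 12.3, 13.7, 21.9 and 26. The highest pair there lay 284 bp apart, at chr3:141244128-141244272 and chr3:141244412-141244556. Unc5c also held 3 intronic peaks within 30 kb of a TSS.

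Ptprd held 6 peaks over 1564 kb with scores of 10.9 to 27.4, of which 3 in introns 10 and 13 were listed under Dmac1 at 901 to 1169 kb. Foxp2, a forkhead repressor gene, held 5 within 96.3 kb, at 28.7, 17.8, 12.3, 9.58 and 12.3, all listed under Foxp2. The 4-peak hosts were Ppm1l (13.7 to 28.7), Dennd1a (10.9 to 27.4), Hmcn1 (10.9 to 21.9), Rad51b (10.9 to 20.5) and Col19a1 (10.9 to 13.7). In Ppm1l 3 peaks were listed under B3galnt1, and in Rad51b 2 were listed under Zfp36l1. The 5 hosts with 6 or more peaks thus held them over stretches of 221.6 kb in Gmds to 1564 kb in Ptprd.

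Another 19 hosts held 3 peaks. Their highest scores ran from 13.7 in Cachd1 and Tox to 34.2 in Cox10, followed by 31.5 in Prkg1, 28.7 in Nrxn3 and 27.4 in Ror1. Dnm3, Pdgfc and Rgs22 reached 24.6, Adk, Dlg2 and Pard3b 21.9, and Trps1 19.2. Eya4, Mipep and Slc25a21 reached 17.8, Kcnma1 16.4, and Arid5b and Mpped2 15.1. Of the 30 hosts with 3 or more peaks, 12 were listed for every peak and 3, Dnm3, Trps1 and Kcnma1, for none. In 4 hosts, Cox10, Trps1, Mipep and Kcnma1, all peaks lay in 1 intron.

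**Figure D4:**
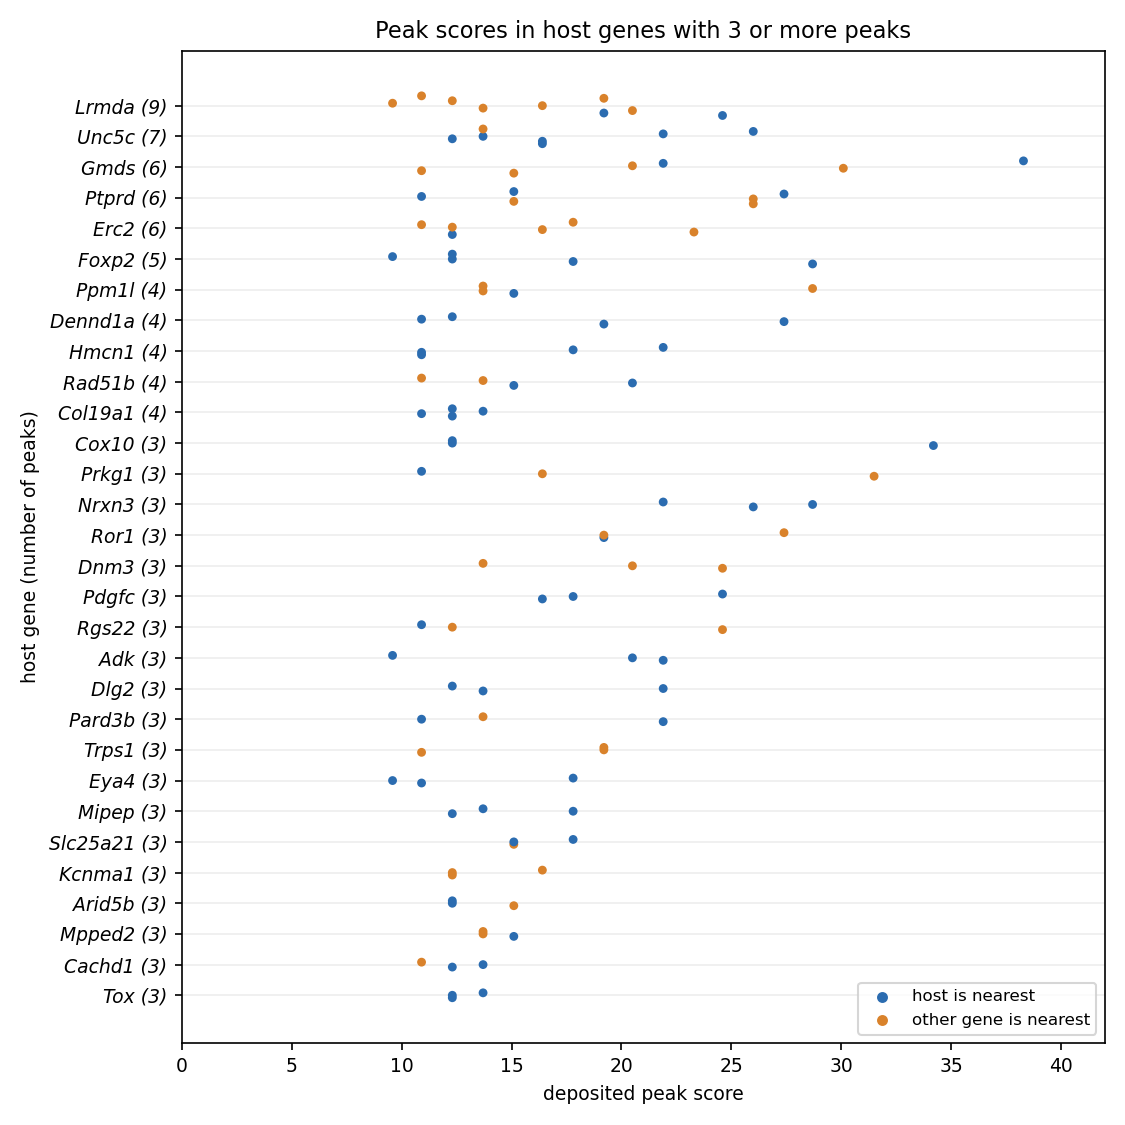
Deposited peak scores in the host genes with 3 or more intronic peaks beyond 30 kb, 1 point per peak, marked by whether the host or another gene has the nearest TSS. Lrmda has 9 points, of which 7 are listed under another gene, and all 5 Foxp2 points are listed under the host.

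Peaks in the same host were often close together. Within 1 kb of each other lay 18 pairs, or 36 peaks (8.35%, 5.92 to 11.4%), with gaps of 284 to 882 bp, and each pair shared its intron. Each peak spans 144 bp from start to end, so the paired peaks did not overlap. Pairs included Plcl1 at 26 and 30.1, Dnm3 at 24.6 and 20.5, and Col19a1 at 10.9 and 13.7. Within 50 kb of another lay 133 of the 431 (30.9%, 26.5 to 35.5%), in 57 groups, of which 13 had 3 or more. Close peaks share their chromatin and library and are not independent of each other.

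**Figure D5:**
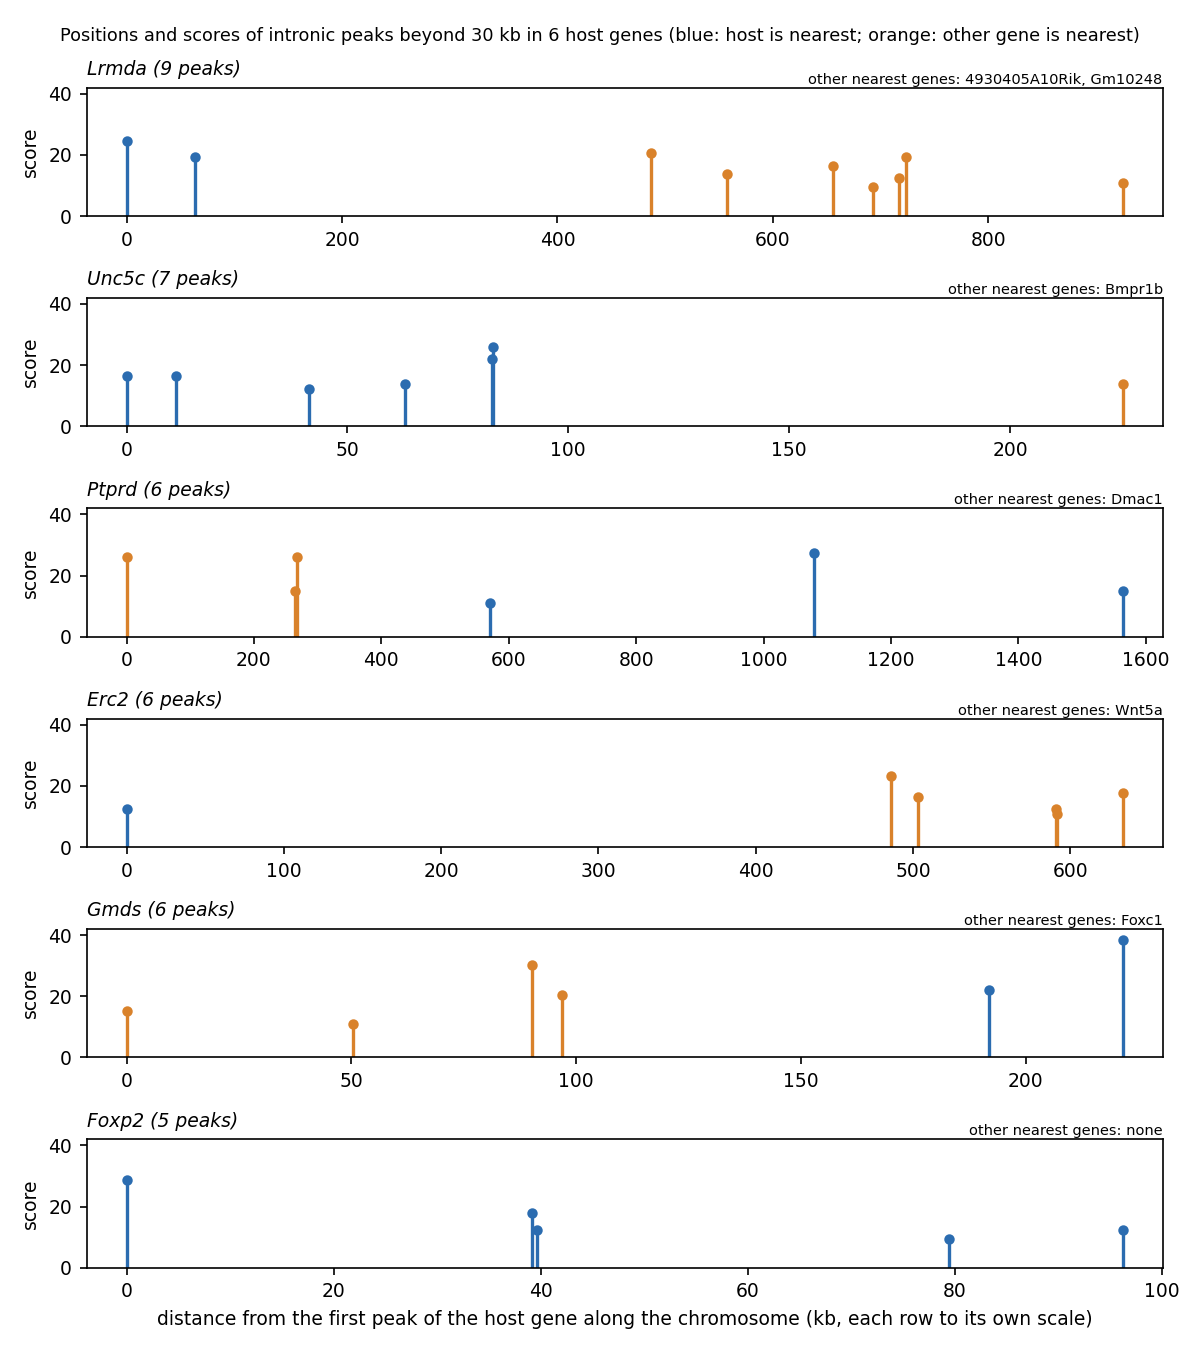
Scores of the intronic peaks beyond 30 kb along 6 hosts, with position in kb from the first peak on the horizontal axis, each row to its own scale. Each stem is 1 peak, coloured by whether the host or another gene has the nearest TSS. In Erc2 and Gmds the peaks listed under Wnt5a and Foxc1 lie to 1 side of any listed under the host. Naming by nearest TSS fixes this separation in advance.

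The hosts were set against 12 gene lists, 8 by role and 4 by cell type, and 150 peaks in 98 hosts were on at least 1 of them. Of the 21900 protein-coding genes of the reference, 289 (1.32%) were hosts. The lists were chosen with results of these data known and gene length was not matched, so a share above that level is not evidence for a list. Axon guidance and synaptic adhesion genes had 20 of 60 listed genes as hosts (33.3%), with 38 peaks and a median score of 15.8 beside 15.1 for all 431. Nrxn3 led at 28.7, followed by Ptprd at 27.4, and Ntng1, a netrin-G gene, and Unc5c at 26. Macrod2 is also on this list, although it encodes an ADP-ribose hydrolase, and without it the counts were 19 of 59 genes and 36 peaks. Its peak of 24.6 lay 656 kb from its listed gene Flrt3, a leucine-rich repeat adhesion gene. Of the 38 peaks, 12 were listed under another gene.

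Transcription factor and cofactor genes had 26 of 117 as hosts (22.2%) with 42 peaks, and 2 of these were listed under another gene. One host on the list, Rbfox1, encodes a splicing regulator, and without it the counts were 25 of 116 genes and 41 peaks. Foxp2 led at 28.7, then Meis2, a TALE homeodomain gene, with 27.4 at 63.1 kb and 12.3 at 161.5 kb. Ppargc1a, a coactivator of mitochondrial genes, had 24.6 at 75.5 kb. Etv1, an ETS factor of fast-conducting atrial and Purkinje myocardium, had 23.3 and 17.8 at 60.0 and 37.0 kb, and Hivep2, a zinc finger factor gene, and Pbx3, another TALE homeodomain gene, reached 21.9 and 20.5. The median of 13.7 was 1 score step below that of all 431 peaks.

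Isl1, the gene of the factor itself, Hcn4, Tbx3 and Shox2 were neither host nor nearest gene of any of the 431 peaks. A host must offer intronic sequence more than 30 kb from every annotated TSS, so for compact genes the way the peaks were chosen largely sets this count, and it says nothing of ISL1 binding elsewhere around these genes. In the whole list Isl1 was nearest to 2 peaks, neither of them intronic, at 184.6 and 199.5 kb. Hcn4, Tbx3 and Shox2 were nearest to 0 peaks of the whole list. Ion channel, transporter and calcium handling genes had 6 of 66 as hosts with 8 peaks, which scored 12.3 to 16.4, and 5 of the 8 were listed under another gene. The list does not hold every channel gene, and Nalcn (17.8) and Unc80 (19.2), which are outside it and were picked after their values were seen, scored higher. The hosts on the list were Grid1 and the calcium-activated potassium channel gene Kcnma1 at 16.4, Cacnb2, a calcium channel subunit gene, at 15.1, and Atp2b1, Grik2 and Camk2d at 12.3 to 13.7. All 3 Kcnma1 peaks carried the name Gm10248, 293.7 to 306.6 kb away.

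Cyclic AMP, phosphodiesterase and kinase genes had 10 of 50 as hosts with 14 peaks and a median of 14.4. Prkg1, the cGMP-dependent kinase gene, led at 31.5. Pde1a, a calmodulin-dependent phosphodiesterase gene, had 26 in intron 1 at 74.7 kb, and Adcy8, an adenylyl cyclase gene, had 21.9 in intron 7 at 144 kb. Plcb1, Stk39 and Pde4d reached 17.8, 15.1 and 13.7. Of the 14 peaks, 6 were listed under another gene.

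WNT, BMP, TGF-beta, Notch and growth factor genes had 13 of 74 as hosts with 18 peaks and a median of 15.8. Ror1 led at 27.4, then Pdgfc, a growth factor gene with peaks of 24.6, 17.8 and 16.4, Vangl1, a planar polarity gene, at 19.2, Bmpr1b and Fgf13 at 17.8, and Ghr at 15.1. A further 5 genes of this list were nearest to 10 peaks inside another gene, which is the setting of Wnt5a and Wnt11 described above. Cell adhesion and matrix genes had 10 of 52 as hosts with 14 peaks and a median of 15.05, and 6 of the 14 were listed under another gene. Lama2 led at 38.3, followed by Adamtsl1 at 20.5, the collagen gene Col25a1 and the fibrillin gene Fbn2 at 17.8, and the cadherin family genes Cdh2, Pcdh15 and Pcdh7 at 16.4.

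Sarcomere, Z-disc and cytoskeleton genes had 9 of 60 as hosts with 1 peak each and a median of 15.1. Pdlim5, a Z-disc scaffold gene, reached 26 at 45.9 kb, Utrn, the dystrophin relative, 21.9, and Nebl, a nebulin relative of the heart, 17.8. Small GTPase regulators and trafficking genes had 4 of 57 with 7 peaks and a median of 17.8, among them Dnm3 at 24.6 and Arhgap15 at 23.3. The 4 lists of markers of other cell types had 1 host among 82 genes (1.22%), beside 1.32% of all coding genes. Endothelial markers had 1 of 22 as host, Mecom, with peaks of 16.4 and 10.9, and fibroblast and epicardial (0 of 20), neuron and glia (0 of 21) and blood (0 of 19) markers had none. Of the fibroblast and epicardial genes, 2 held an intronic peak when the distance limit was dropped. Peaks do not measure expression, so these counts say nothing of which cells were in the sort.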

How the data were processed

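ISL1 ChIP-seq in sorted sinoatrial node cells gave 1 annotated peak list from 1 library. Crosslinking used 2 mM disuccinimidyl glutarate (30 min) and then 1% formaldehyde (10 min), and shearing gave fragments of 100 to 400 bp, per the labels' protocols. The first crosslinker joins proteins, so a peak can mark DNA reached through a partner, and fragment length limits the resolution of close pairs. Bowtie, HOMER and build mm9 are named per the submitters' processing notes, while versions, caller settings and the use of the input were not given in the sources used here. Peaks were annotated by HOMER per the file headers, which also name an input in the table annotated. The deposited score has no stated scaling. The focus ratio is a fraction per peak deposited by the authors. The signed distance to the nearest TSS is in bases, per the file headers. Total reads were not analysed here, so library depth is unknown.

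From these columns, introns and host transcripts were read and matched to gene symbols through the deposited transcript columns and a RefSeq table (GRCm38.p6, used for names and gene order only), for 428 of 431 peaks. Host starts were solved from signed distances and intron order. All 264 promoters with 2 or more peaks gave a single start, and the strand was that of the reference for 214 of 214 checked. Medians and shares have exact 95% intervals (Python 3.11.15, pandas 2.3.3, numpy 2.4.6, scipy 1.17.1), and the scripts were tested on simulated data. No genome of mm9 was used here, so no peak sequence or motif is given.

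Genes named were the hosts of the 12 highest scores with ties, hosts with 3 or more peaks, up to 6 per gene list by score, the 10 highest pairs with different genes, pairs whose listed gene is on a gene list, the peaks beside the 30 kb limit, the extremes, and Isl1, Hcn4, Tbx3 and Shox2. The 12 lists hold 615 genes, 12 of them not in the reference. Members and lists were chosen with earlier results of these data known. The alternatives were higher score limits, distance limits of 20 and 50 kb, leaving out repeats, merging within 1 kb, other spacing limits, and matching by accession.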

Additional observations from a re-analysis of the deposited data

How the results depend on the processing

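Of 45 values recomputed for 7 results, 33 stayed close to those reported and 12 moved. Requiring a score at or above the 75th percentile (17.8) or the median (15.1) left 130 and 219 peaks, with median scores of 20.5 and 17.8, 19 and 29 hosts with 2 or more peaks, and 25 and 45 peaks within 50 kb of another. The median scores rose because the limit was set on the score itself, and the counts fell with the number of peaks kept. With a distance limit of 50 kb the share in intron 1 was 11.1% and the median distance 122 kb. A spacing limit of 10 kb left 73 neighbouring peaks. Matching host and listed gene by transcript accession alone put 42.9% (38.2 to 47.8%) under another gene, since isoforms of 1 gene then count as different. Under the other settings that share stayed between 30.6 and 35.2%. No paired analysis was possible because each group is 1 library. With 1 library and a median of 11 score steps, neighbouring ranks cannot be told apart, and the absence of a peak at a gene does not show the absence of binding.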

Other observations

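Of the 428 peaks with a host, 278 in 197 hosts were on none of the gene lists. The genes named next were chosen from them after their values were seen, for known roles in the heart or in excitability. Corin, which encodes the protease that activates atrial natriuretic peptide, had a peak of 20.5 in intron 5 of 21, 92.0 kb from its TSS. Nalcn, the sodium leak channel gene, had 17.8 in intron 9 of 43 at 114 kb, and Unc80, which encodes a subunit of the same channel complex, had 19.2 in intron 51 of 64 but was listed under Rpe. Nos1ap, a gene linked to the QT interval, had 12.3 at 57.1 kb. Trdn, which encodes triadin of the calcium release complex, had 12.3 in intron 23 of 37 and was listed under D830005E20Rik. Mlip, a muscle lamin-interacting protein gene, had 15.1 in its last intron and was listed under Tinag.

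On chromosome 14, 39 of 81 peaks were intronic and beyond 30 kb (48.1%, 36.9 to 59.5%), the highest share of any chromosome, against 12.5% on chromosome 8. Lrmda, Erc2, Adk, Kcnma1 and Mipep, picked after the values were seen, held 24 of the 39. Leaving those 24 out lowers the share on chromosome 14 by construction, to 15 of 57 (26.3%). The 29.1% of all peaks was not trimmed in this way, so these shares are not comparable. What the hosts contribute to the high share was not tested. In a stretch of 2207 kb across Adk, Lrmda and Kcnma1, which was chosen after the values were seen, 15 of 18 peaks were of this kind and the other 3 were intergenic.

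The 3 peaks without a matched host lay in introns 4, 5 and 6 of 1 transcript of 18 introns on chromosome 5. They scored 12.3, 10.9 and 13.7 and were listed under 4930563F08Rik and Galnt17.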
